A study of Mus musculus with 9 samples.

Results

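The genes described here encode the proteins of the mitochondrial ribosome (mitoribosome). They were chosen by name: every array probe whose annotated symbol begins with Mrpl or Mrps and a number, which gave 132 of 45281 probes and 76 of 19057 named genes. Illumina bead arrays measured RNA of primary cortical microglia, a macrophage type that lives in the brain. The cells were cultured from 1 to 5 day old mice of the strain C57BL/6J, CB2+/+ (cannabinoid receptor 2 intact) in every group. One group of 3 arrays held cells given lipopolysaccharide (LPS) together with interferon-gamma (IFNγ, 20 ng/ml) for 16 h, the second held cells kept for 48 h with 100 U/ml of interleukin-4 (IL-4), and the third held unstimulated cells. LPS is listed at 100 with an incomplete unit (n/ml), how long unstimulated cells were cultured is not labelled, and the labels do not say whether replicates were separate cultures, so p-values measure only the spread between these samples.

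The mitoribosome translates the few messages of mitochondrial DNA, which encode core subunits of the respiratory chain and of ATP synthase. All of its proteins are encoded in the nucleus, made in the cytosol and imported, while its ribosomal RNAs come from mitochondrial DNA. Many of the proteins have a counterpart in the bacterial ribosome, and the others are found only in mitochondria, where they replace or extend parts of the bacterial structure. In macrophages, LPS with IFNγ is known to favour glycolysis, and IL-4 to favour mitochondrial respiration.

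Of the 76 genes, 72 had a probe detected (detection p under 0.05, a rank against background) on at least 3 of the 9 arrays, and each was represented by its brightest such probe. Mrpl19, Mrpl32, Mrpl45 and Mrps14 were not above background by that rule. The 72 measured genes comprised 47 of the large subunit, which forms peptide bonds, and 25 of the small subunit, which reads the message. Mrps18a and Mrps30 are counted in the large subunit, where their proteins sit despite their names. By origin, 45 have a bacterial counterpart and 27 are specific to mitochondria.

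Detection was near complete except on 1 array. The 72 genes were all detected on LPS + IFNγ replicates 1 and 3, 42 of them on LPS + IFNγ replicate 2, 71 or 72 on the IL-4 arrays, and 71 or 72 on the unstimulated arrays. LPS + IFNγ replicate 2 was a weak array, with a mean intensity of 111.9 and 6208 probes detected, against 310.9 to 378.5 and 14475 to 16435 on the other arrays. Results that involve LPS + IFNγ are therefore given with and without it. The arrays were on 2 slides as read from their identifiers: slide 1 held LPS + IFNγ replicates 1 and 2 and IL-4 replicates 1 and 2, and slide 2 held the third replicate of both and all unstimulated arrays. The 9 microglia and macrophage markers with a probe were each detected on all unstimulated arrays. Their summed log2 signal was 72.72 to 75.33 on LPS + IFNγ arrays, 83.18 to 84.21 on IL-4 arrays and 86.59 to 93.61 on unstimulated arrays, and P2ry12 was detected on none of the LPS + IFNγ arrays. Of the 9, Aif1, Itgam and Ptprc had higher means on LPS + IFNγ arrays (11.94, 8.44 and 7.37) than on unstimulated arrays (10.88, 7.95 and 7.12), and the other 6 had lower ones. Of 28 markers of other brain, vascular and blood cells, 11 were undetected on all arrays, among them Aqp4, Mog, Snap25 and Cldn5. Of the others, Mbp was detected on all 9 arrays, with means of 7.05 after LPS + IFNγ, 8.83 after IL-4 and 9.58 without stimulus, and Pecam1 had 6.68, 8.02 and 5.82. The blood-cell marker S100a8, detected on no IL-4 array, had 7.23, 4.39 and 5.68, and the astrocyte marker Gja1 had 6.29, 6.73 and 5.2. The summed signal of the 28 was 135.3 to 147.94, 133.54 to 150.51 and 131.33 to 138.91 in the same order of groups. The part of cell composition in the results below was not tested, and in such bulk RNA fewer cells of a type and less RNA per cell cannot be told apart.

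Taken gene by gene against the mean of the unstimulated arrays, the 72 genes sat slightly above it on 5 of the 6 stimulated arrays. The median log2 difference was 0.25, -0.58 and 0.19 on LPS + IFNγ replicates 1 to 3. It was 0.25, 0.19 and 0.27 on IL-4 replicates 1 to 3, and 0.0045, -0.012 and 0.026 on the unstimulated arrays. The weak array was the exception, and over all 9391 genes measured its median was also low, at -0.50, whereas the other LPS + IFNγ arrays had -0.054 and -0.066. On LPS + IFNγ replicates 1 and 3, 51 of the 72 genes lay above their unstimulated mean, on replicate 2 this was 22, and on the IL-4 arrays it was 60, 57 and 64. Of all genes 46.8%, 35.1% and 46.1% did so on LPS + IFNγ replicates 1 to 3. On IL-4 replicates 1 to 3 it was 49.5%, 51.2% and 52.2% of all genes.

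**Figure D1:**
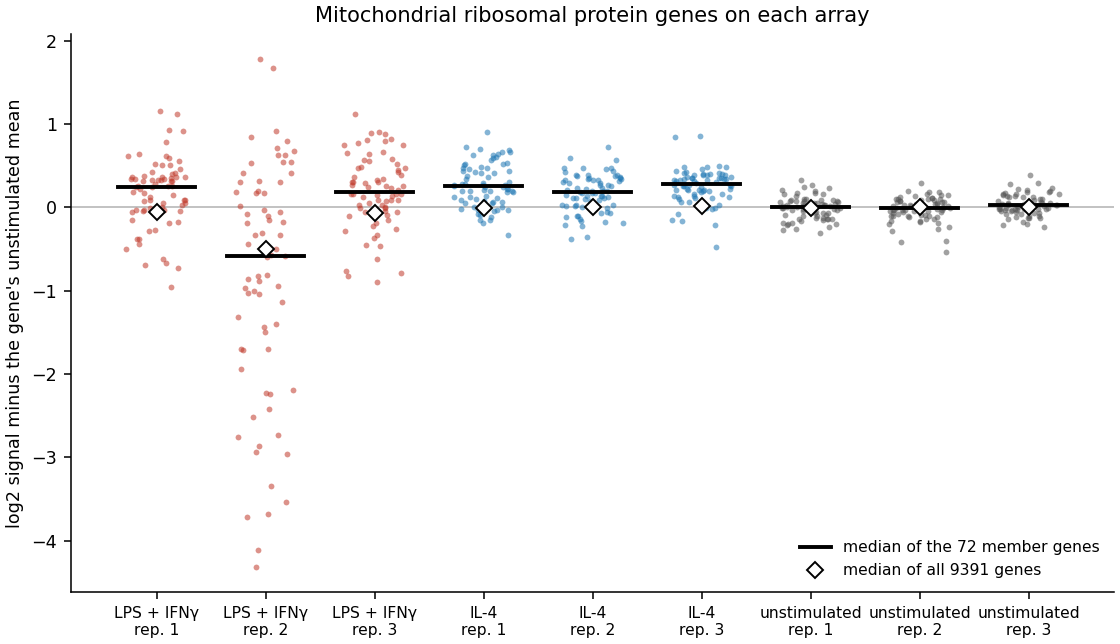
Difference of each of the 72 mitoribosomal protein genes from its unstimulated mean (y axis, log2) on each of the 9 arrays (x axis). Points are genes, bars their median and diamonds the median of all 9391 genes: the bars of the IL-4 arrays lie at 0.19 to 0.27, and that of LPS + IFNγ replicate 2 at -0.58, with a long lower tail.

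LPS with IFNγ was set against no stimulus to describe the inflammatory state. With all arrays Mrpl3 rose, Mrpl23, Mrps24 and Mrpl36 fell, and no other of the 72 genes passed the threshold (adjusted p under 0.05, limma, adjusted over 16895 probes). The counts of 1 of 72 higher and 3 of 72 lower compare with 6.12% and 12.2% of all 9391 genes called higher and lower, so both counts were below those shares, a difference that was not tested. At an unadjusted p under 0.05 (limma), 7 were higher and 5 lower. Shares of all genes are at the adjusted threshold here and below, so they cannot be set against unadjusted counts. The family's median log2 difference was -0.070 (-0.22 over all genes), 0.26 without LPS + IFNγ replicate 2 (-0.047 over all genes) and -0.19 with arrays centred on their medians in place of quantile normalization (-0.032 over all genes), so it had no settled direction.

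Mrpl3 encodes a core protein of the large subunit whose bacterial counterpart takes part early in the assembly of that subunit. Its normalized log2 signal was 9.79, 9.57 and 9.98 on LPS + IFNγ replicates 1 to 3, 9.33, 9.43 and 9.29 on the IL-4 arrays and 8.75, 8.96 and 8.87 on the unstimulated arrays. The LPS + IFNγ arrays did not overlap the unstimulated ones, and the IL-4 arrays lay between them. The log2 difference of LPS + IFNγ from unstimulated was 0.92 ± 0.20 (SE, n = 3 arrays each, 1.89-fold, limma adjusted p = 0.0153) and 1.05 ± 0.17 without the weak array (adjusted p = 0.0021). A second, separately kept Mrpl3 probe, detected on 8 arrays, had -0.25 with all arrays (adjusted p = 0.88) and 1.23 without the weak one (adjusted p = 0.0011).

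Mrpl23 encodes a large-subunit protein whose bacterial counterpart lines the exit of the tunnel through which the new protein leaves. It had 9.66, 9.59 and 9.71 on LPS + IFNγ arrays, 10.74, 10.72 and 11.03 on IL-4 arrays and 10.67, 10.50 and 10.67 on unstimulated arrays. All LPS + IFNγ arrays lay below all others, the weak one at the level of its replicates. The difference of LPS + IFNγ from unstimulated was -0.96 ± 0.19 (log2, SE, n = 3 arrays each, limma adjusted p = 0.0113), which is 0.515 times the unstimulated signal.

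Mrps24 encodes a small-subunit protein whose bacterial counterpart sits where the message enters. It had 10.13, 9.75 and 9.98 on LPS + IFNγ arrays, 10.95, 10.83 and 10.86 on IL-4 arrays and 10.72, 10.64 and 10.87 on unstimulated arrays, with no overlap between LPS + IFNγ and either other group. It fell by 0.79 ± 0.20 against unstimulated (log2, SE, n = 3 arrays each, limma adjusted p = 0.0276). Mrpl36, a small protein of the large subunit, had 9.05, 8.94 and 8.92 on LPS + IFNγ arrays, 9.63, 9.83 and 10.16 on IL-4 arrays and 9.76, 9.77 and 9.72 on unstimulated arrays. It fell by 0.78 ± 0.21 (adjusted p = 0.036), again without overlap. Without the weak array the falls of Mrpl23, Mrps24 and Mrpl36 were 0.93, 0.68 and 0.78, and each passed the test.

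The slide bears on these calls, since all unstimulated arrays were on slide 2. With slide as a block the difference was 0.99 for Mrpl3, -0.83 for Mrpl23, -0.79 for Mrps24 and -0.66 for Mrpl36, and none of the 72 genes passed (smallest adjusted p = 0.0727, with 3 higher and 4 lower at an unadjusted p under 0.05; 2.57% and 4.54% of all genes were called higher and lower). Within slide 2, where LPS + IFNγ has 1 array, the differences were 1.12, -0.90, -0.76 and -0.83, given as values with no test. With median centring in place of quantile normalization the 4 genes had 0.45, -1.38, -1.20 and -1.26, and none of the 72 passed in either direction (smallest adjusted p = 0.0951, with 2 higher and 2 lower at an unadjusted p under 0.05; 3.75% and 6.9% of all genes were called higher and lower). Single arrays other than the weak one also decided calls. None of the 72 genes passed without unstimulated replicate 1, where 379 of all genes were called higher and 676 lower. Without unstimulated replicate 3, 0 rose and 1 fell (354 and 637 of all genes). Without unstimulated replicate 2, 1 rose and 1 fell (374 and 757). Leaving out IL-4 replicate 2, which enters through the shared spread, also gave 1 and 1 (494 and 935). With all arrays 575 and 1143 of all genes were called, so calls over all genes fell in these fits too.

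**Figure D2:**
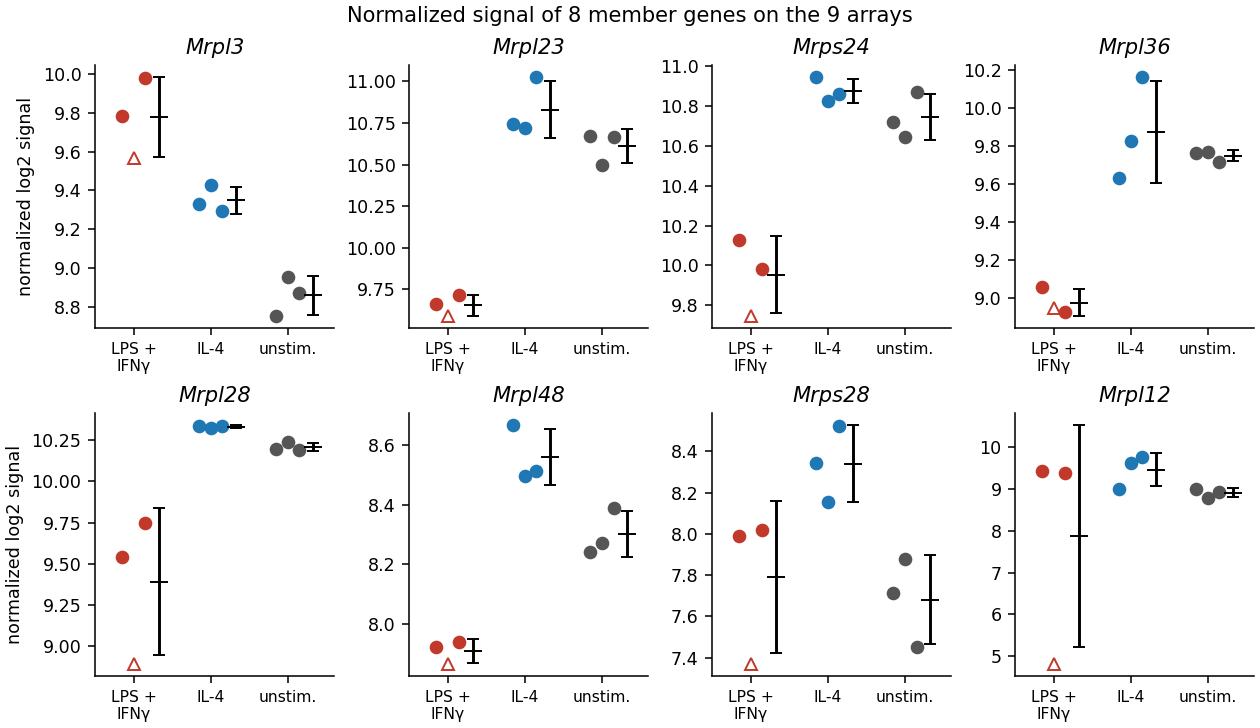
Normalized log2 signal (y axis) of 8 mitoribosomal protein genes in each group of 3 arrays. Points are arrays, the open triangle is LPS + IFNγ replicate 2, and the black mark is the mean ± SD. Mrpl3 is highest and Mrpl23, Mrps24, Mrpl36 and Mrpl28 lowest after LPS + IFNγ on every array, whereas the low LPS + IFNγ mean of Mrpl12 comes from 1 array at 4.80.

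The upstream sequences of the 4 genes called against unstimulated are shown because this family is known for promoters that share sites of a few general activators. They are the 250 bases before the RefSeq start (GRCm38.p6), printed 5′ to 3′ on the gene's strand in lower case. Capitals mark matches on either strand to the core CCGGAAG of ETS factors such as GABP, the core TGCGCA of NRF1 and the core AGATGGC of YY1, none of which overlaps another here.
Mrpl3, chr9:105053018-105053267, plus strand: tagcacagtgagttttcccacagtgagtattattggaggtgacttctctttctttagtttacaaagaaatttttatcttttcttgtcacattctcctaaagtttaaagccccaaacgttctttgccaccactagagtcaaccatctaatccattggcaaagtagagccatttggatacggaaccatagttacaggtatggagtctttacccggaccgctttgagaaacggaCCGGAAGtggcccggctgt
Mrpl23, chr7:142532782-142533031, plus strand: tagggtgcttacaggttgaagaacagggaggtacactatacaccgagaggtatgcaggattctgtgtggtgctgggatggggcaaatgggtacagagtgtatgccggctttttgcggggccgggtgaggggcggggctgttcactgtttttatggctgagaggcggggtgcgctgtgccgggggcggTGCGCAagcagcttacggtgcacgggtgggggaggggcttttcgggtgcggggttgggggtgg
Mrps24, chr11:5707702-5707951, minus strand: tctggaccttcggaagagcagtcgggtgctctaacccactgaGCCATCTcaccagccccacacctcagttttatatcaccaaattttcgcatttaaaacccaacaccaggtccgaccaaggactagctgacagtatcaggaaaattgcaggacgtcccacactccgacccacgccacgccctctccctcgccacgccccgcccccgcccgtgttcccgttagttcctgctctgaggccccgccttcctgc
Mrpl36, chr13:73330759-73331008, plus strand: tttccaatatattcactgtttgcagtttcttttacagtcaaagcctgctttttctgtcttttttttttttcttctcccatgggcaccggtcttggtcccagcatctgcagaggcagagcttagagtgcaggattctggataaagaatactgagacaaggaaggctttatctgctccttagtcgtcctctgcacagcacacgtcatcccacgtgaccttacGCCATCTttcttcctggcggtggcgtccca

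Mrpl3, the gene that rose, holds the ETS core, Mrpl23 holds the NRF1 core, and Mrps24 and Mrpl36 hold the YY1 core in these windows. In the 50 bases after the start, not printed, Mrps24 and Mrpl36 also hold the NRF1 core, and Mrps24 another YY1 core. Among the 73 RefSeq promoters (250 bases before to 50 after the start) of the 67 genes with a match in the promoter table, 35.6% held the ETS core, against 12.2% of 18684 promoters of all genes on the array and 8.86% of all 32851 promoters. The NRF1 core stood in 30.1%, 10.3% and 7.76%, and the YY1 core in 16.4%, 6.14% and 6.4%, in the same order. Of the 67 genes 44 held at least 1 of the 3 cores, 23 held none and 1, Mrps18a, held all. A match describes the letters of a window and does not show that a factor binds there.

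Without LPS + IFNγ replicate 2 more genes were called, both among the 72 and over all genes. In that fit 10 of the 72 were higher and 5 lower, which is 13.9% and 6.94%. Of all genes 14% and 20% were called higher and lower, against 6.12% and 12.2% with all arrays. The share of the 72 called higher was near that of all genes. The share called lower was below that of all genes, a difference that was not tested. The 5 lower genes were the 3 above with Mrpl33 and Mrpl28. The 10 higher were Mrpl3, Mrpl54, Mrpl47, Mrps22, Mrpl46, Mrps18b, Mrps2, Mrpl55, Mrpl40 and Mrpl53; those not called with all arrays are named after their values were seen. With slide as a block in addition, 8 were higher and 2 lower (11.1% and 2.78%), where 9.83% and 15.1% of all genes were.

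Mrpl54, a large-subunit protein specific to mitochondria, rose in that fit by nearly as much as Mrpl3. On signals normalized over the 8 arrays it had 10.44 and 10.22 on LPS + IFNγ replicates 1 and 3, 9.83, 9.78 and 9.62 on IL-4 arrays and 9.36, 9.15 and 9.37 on unstimulated arrays. The difference of LPS + IFNγ from unstimulated was 1.04 ± 0.18 (log2, SE, n = 2 and 3 arrays, limma adjusted p = 0.00269), against 0.73 ± 0.27 with the weak array (adjusted p = 0.106). Mrpl47, whose bacterial counterpart lies at the exit of the protein tunnel, had 8.31 and 8.20 after LPS + IFNγ and 7.47, 7.27 and 7.14 in unstimulated cells, a difference of 0.96 ± 0.19. Mrps22, a small-subunit protein specific to mitochondria, had 8.82 and 8.19 after LPS + IFNγ and 7.81, 7.37 and 7.47 in unstimulated cells, a difference of 0.95 ± 0.25. These 3 genes showed no overlap between the groups in that fit.

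The other rises in that fit were smaller. Mrpl46 and Mrpl40, both large-subunit proteins specific to mitochondria, differed by 0.84 and 0.66. Mrps18b, 1 of 3 mammalian relatives of a single bacterial small-subunit protein, differed by 0.75, and its other 2 kept probes also passed, at 1.19 and 1.09. Mrps2 differed by 0.75, Mrpl55 by 0.75 and Mrpl53 by 0.64. Of the falls, Mrpl33 had -0.65, with a second probe at -0.56, and Mrpl28 had -0.57.

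The fits with and without the weak array differed most in the genes that it did not detect. With all arrays the median difference was 0.18 for the 42 genes detected on LPS + IFNγ replicate 2 and -0.61 for the 30 that were not. Without that array the medians were 0.21 and 0.26. Mrpl12, the stalk protein that binds translation factors in bacterial ribosomes, is an example: it had 9.42, 4.80 and 9.39 on the LPS + IFNγ arrays against 9.01, 8.79 and 8.92 on the unstimulated ones. Replicate 2, where the probe was not detected, was far below every other array, and replicates 1 and 3 were above all unstimulated arrays. Mrps21, Mrps9 and Mrpl9 were likewise low on the weak array, with 4.77, 4.40 and 4.77, against unstimulated means of 9.08, 8.11 and 8.46.

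**Figure D3:**
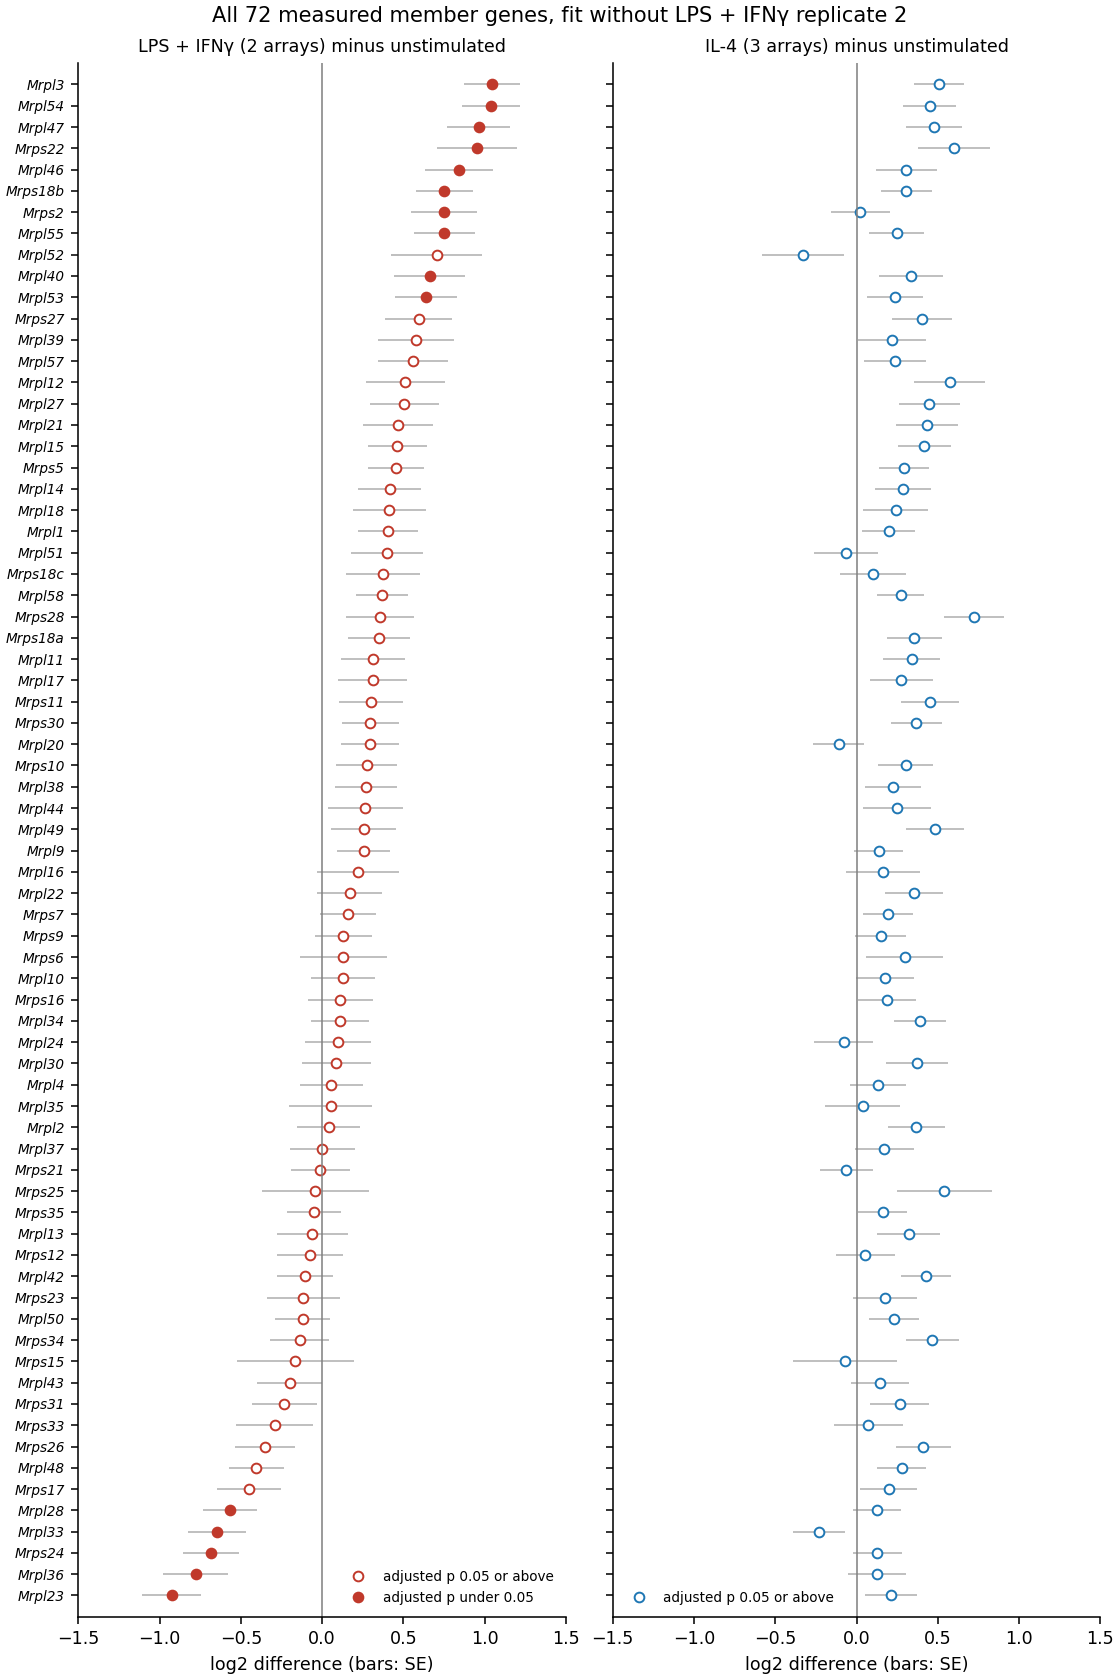
Log2 difference from unstimulated of all 72 mitoribosomal protein genes (rows, ordered by the left panel) in the fit without LPS + IFNγ replicate 2: LPS + IFNγ with 2 arrays on the left, IL-4 with 3 arrays on the right. Bars are SE and filled points have an adjusted p under 0.05: 15 genes are filled on the left and none on the right, where 65 of 72 points lie above 0.

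IL-4 was set against no stimulus to describe alternative activation. No mitoribosomal gene passed the test in either direction (limma, all arrays; 2 higher and 0 lower at an unadjusted p under 0.05), and of all 9391 genes 0.0639% were called higher and 0% lower. The count was also 0 in both directions without LPS + IFNγ replicate 2 (0.298% and 0.0319% of all genes). With slide as a block it was 0 in both directions too (0.0319% and 0% of all genes). At an unadjusted p under 0.05 (limma) the first of these fits had 16 higher and 0 lower, and the second 1 and 0. The all-gene shares are at the adjusted threshold, and shares at an unadjusted p were not counted. The differences were small and mostly of one sign: 65 of 72 were above 0 against 51.7% of all genes, with a median of 0.22 against 0.012. In 29 genes all IL-4 arrays lay above all unstimulated arrays (40.3%, where 10% of all genes did so), and in 1, Mrpl33, they lay below (1.39%, where 8.23% of all genes did so). Across all alternatives the family's median stayed between 0.17 and 0.40. Within slide 2, where the 1 IL-4 array is replicate 3 with the values given above, it was 0.27 (0.016 over all genes). There 64 of 72 were above 0, against 52.2% of all genes. With slide as a block the median was 0.40 (0.086 over all genes). In that fit it was 0.62 for the 30 genes not detected on LPS + IFNγ replicate 2 and 0.29 for the 42 detected. With that array left out and slide as a block the median of the 72 was 0.28 (0.016 over all genes).

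Mrps28, a small-subunit protein related to a bacterial RNA-binding protein of that subunit, had the largest IL-4 difference of the 72. It had 8.34, 8.15 and 8.53 on IL-4 arrays and 7.71, 7.88 and 7.45 on unstimulated arrays, with no overlap. The difference was 0.66 ± 0.25 (log2, SE, n = 3 arrays each) and did not pass (limma adjusted p = 1). With arrays weighted by quality it passed (limma adjusted p = 0.0391), the only such call in the family. That setting called 131 of all 9391 genes higher and 124 lower, against 6 and 0 without weights. Whether 1 call among the 72 differs from the share over all genes was not tested. Mrpl12 had 9.005, 9.63 and 9.76 on IL-4 arrays against 9.01, 8.79 and 8.92 on unstimulated ones, and IL-4 replicate 1 lay within the unstimulated range. Mrpl52, a large-subunit protein specific to mitochondria, had the lowest difference, -0.33, with 9.45, 9.24 and 9.12 after IL-4 and 9.93, 9.06 and 9.81 without stimulus, so that its groups overlapped.

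The small positive IL-4 differences spanned both subunits and both origins. The median was 0.22 for 47 large-subunit and 0.20 for 25 small-subunit genes, with 42 and 23 above 0. It was 0.22 for the 45 genes with a bacterial counterpart and 0.24 for the 27 specific to mitochondria. After LPS + IFNγ the subunits lay further apart with all arrays, at -0.0013 and -0.29, than without the weak array, at 0.29 and 0.11. By origin the LPS + IFNγ medians without that array were 0.22 and 0.26; the 5 genes called lower there all have a bacterial counterpart, and of the 10 called higher 5 do. None of these differences between groups of genes was tested.

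**Figure D4:**
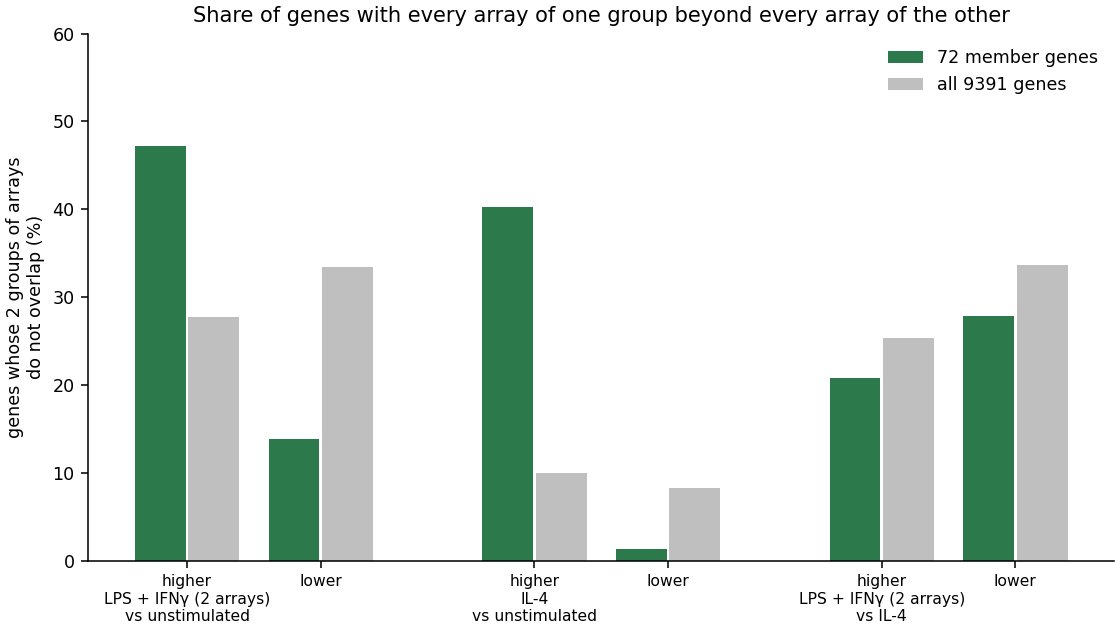
Share of genes (y axis, %) for which every array of one group lies beyond every array of the other, higher or lower, in 3 comparisons. Green bars are the 72 mitoribosomal protein genes and grey bars all 9391 genes; LPS + IFNγ is without replicate 2, which leaves 2 arrays and a larger share by the smaller number. Green exceeds grey for higher signal after LPS + IFNγ (47.2% and 27.7%) and after IL-4 (40.3% and 10%) against unstimulated.

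By non-overlap of arrays, LPS + IFNγ against unstimulated had 15 genes wholly higher (20.8%, where 14% of all genes were) and 9 wholly lower (12.5%, where 27% were) with all arrays. Without replicate 2 there were 34 higher (47.2% against 27.7%) and 10 lower (13.9% against 33.4%). LPS + IFNγ against IL-4 had 4 wholly higher (5.56%, where 12.6% of all genes were) and 17 wholly lower (23.6%, where 26.8% were) with all arrays, and 15 (20.8% against 25.3%) and 20 (27.8% against 33.7%) without replicate 2. Both comparisons with unstimulated cells use the same 3 arrays, so their values for a gene are not independent.

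LPS with IFNγ was also set against IL-4. With all arrays 5 of 72 genes were lower after LPS + IFNγ (6.94%, where 11.6% of all genes were) and 0 higher (2 at an unadjusted p under 0.05, limma; 5.69% of all genes). Mrpl23 fell by 1.18 ± 0.19 (log2, SE, n = 3 arrays each, adjusted p = 0.00495), Mrps24 by 0.93 ± 0.20 (adjusted p = 0.0157) and Mrpl36 by 0.90 ± 0.21 (adjusted p = 0.021), on the array values given above.

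Mrpl28, a large-subunit protein with a bacterial counterpart, had 9.54, 8.89 and 9.75 on LPS + IFNγ arrays and 10.34, 10.32 and 10.33 on IL-4 arrays, and fell by 0.94 ± 0.25 (adjusted p = 0.0369). Mrpl48, a large-subunit protein specific to mitochondria, had 7.92, 7.87 and 7.94 on LPS + IFNγ arrays and 8.67, 8.50 and 8.51 on IL-4 arrays, and fell by 0.65 ± 0.18 (adjusted p = 0.0465). None of the 5 genes overlapped between the groups. The count of 5 lower was 1 without IL-4 replicate 2 or 3, and 3 without IL-4 replicate 1, LPS + IFNγ replicate 1 or 3, or any unstimulated array. Over all genes 1093 were lower with all arrays, 579 and 526 without IL-4 replicates 2 and 3, and 838 to 1021 without the others listed.

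Both slides hold both groups here. With slide as a block 4 of the 5 were lower (9.62% of all genes), Mrpl48 was not (adjusted p = 0.0748), and 0 were higher (2 at an unadjusted p under 0.05; 4.95% of all genes). Within slide 1, with 2 arrays each, the 5 differences were -1.11, -0.95, -0.73, -1.11 and -0.69 in the order above and none passed; within slide 2, with 1 array each, they were -1.31, -0.88, -1.24, -0.59 and -0.57, given as values with no test. Median centring ended all 5 calls, with differences of -1.67, -1.37, -1.43, -1.40 and -1.05 in the same order, and none of the 72 passed in either direction (smallest adjusted p = 0.106, with 1 higher and 4 lower at an unadjusted p under 0.05; 3.73% and 6.51% of all genes were called higher and lower). Without LPS + IFNγ replicate 2, 9 genes were lower (12.5%, where 19.4% of all genes were) and 4 higher (5.56%, where 12.9% were): Mrpl52, Mrps2, Mrpl54 and Mrpl3, named after their values were seen. Mrpl52 had 10.10, 10.01 and 10.49 after LPS + IFNγ with all arrays, wholly above IL-4, and its difference from IL-4 was 0.93 with all arrays (adjusted p = 0.0604) and 1.04 without the weak one (adjusted p = 0.0235). The family's median difference was -0.36 with all arrays (-0.24 over all genes) and -0.030 without replicate 2 (-0.076 over all genes).

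Beyond the representing probes, 33 further kept probes cover 23 of the genes. Their sign matched that of the representing probe for 22 of 33 in LPS + IFNγ against unstimulated, 30 of 33 in IL-4 against unstimulated and 24 of 33 in LPS + IFNγ against IL-4. No gene had probes that passed in opposite directions. A pair of Mrps31 probes lay further apart without the weak array. With all arrays a second probe had -0.98 for LPS + IFNγ against unstimulated (adjusted p = 0.0291) and the representing one -1.05 (adjusted p = 0.289). Without LPS + IFNγ replicate 2 they had -1.25 (adjusted p = 0.00384) and -0.23 (adjusted p = 0.417). The representing probe had 8.65, 5.90 and 8.17 after LPS + IFNγ and 8.52, 8.72 and 8.63 in unstimulated cells.

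Other genes of mitochondrial gene expression were counted from lists, beside the shares of all genes called above: 6.12% higher and 12.2% lower after LPS + IFNγ against unstimulated with all arrays, and 14% and 20% without LPS + IFNγ replicate 2. The lists are short, and no list was tested against those shares. Of 4 mitoribosomal proteins under other names, none passed in any comparison; Dap3, a GTP-binding small-subunit protein, differed by 0.28 after LPS + IFNγ and 0.31 after IL-4. None of 14 mitochondrial translation factors passed with all arrays. Tufm, the elongation factor that brings in transfer RNA, had an IL-4 difference of 0.61 (adjusted p = 1), with 9.81, 10.76 and 10.38 on IL-4 arrays against 9.57, 9.73 and 9.83 on unstimulated arrays. Guf1, a translation factor related to a bacterial elongation factor, was detected on no LPS + IFNγ array.

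Of 19 measured genes of mitoribosome assembly and ribosomal RNA modification, 1 fell and 0 rose after LPS + IFNγ. This was Rbfa, whose bacterial counterpart matures the small subunit. It had 8.74, 8.63 and 8.64 on LPS + IFNγ arrays, 10.36, 10.01 and 10.31 on IL-4 arrays and 9.95, 10.04 and 9.92 on unstimulated arrays. It fell by 1.30 against unstimulated (adjusted p = 0.00318) and by 1.56 against IL-4, and its fall held with slide as a block (adjusted p = 0.033).

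Of 16 measured genes of mitochondrial DNA expression, 2 rose and 1 fell after LPS + IFNγ. Tefm, the mitochondrial transcription elongation factor, had 8.33, 7.93 and 8.21 on LPS + IFNγ arrays, 7.41, 7.30 and 7.27 on IL-4 arrays and 7.06, 7.12 and 7.15 on unstimulated arrays, a difference of 1.04 from unstimulated. Slirp, which binds mitochondrial messenger RNAs, differed by 0.79. Hsd17b10, a dehydrogenase that is also part of the mitochondrial enzyme that cuts transfer RNA precursors, had 7.85, 8.20 and 7.94 on LPS + IFNγ arrays, 9.08, 9.46 and 9.46 on IL-4 arrays and 9.36, 9.48 and 9.53 on unstimulated arrays, and fell by 1.46. With slide as a block Hsd17b10 passed (adjusted p = 0.0292), while Tefm (0.0627) and Slirp (0.108) did not.

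Of 9 measured regulators of mitochondrial biogenesis, 2 rose and 0 fell after LPS + IFNγ against unstimulated, and 5 rose without the weak array, where 14% of all genes did. Ppargc1b, a coactivator of mitochondrial genes, had 7.71, 8.44 and 8.41 on LPS + IFNγ arrays, 7.61, 7.35 and 7.63 on IL-4 arrays and 6.46, 5.65 and 6.27 on unstimulated arrays. It differed from unstimulated by 2.06 after LPS + IFNγ (adjusted p = 0.0029) and by 1.40 after IL-4, where it did not pass (adjusted p = 0.415). Esrra, a nuclear receptor that works with such coactivators, had 9.94, 10.16 and 10.22 on LPS + IFNγ arrays, 8.68, 8.74 and 8.86 on IL-4 arrays and 8.30, 8.53 and 8.25 on unstimulated arrays. It differed from unstimulated by 1.75 after LPS + IFNγ (adjusted p = 0.000857) and by 0.40 after IL-4, where it did not pass. Without the weak array Gabpa and Gabpb1, the subunits of the ETS factor GABP, also rose, by 1.18 and 0.92 (named after their values were seen). After IL-4 none of the genes in the 5 lists passed with all arrays. Against IL-4, Rbfa and Hsd17b10 were lower and Tefm, Slirp and Esrra higher after LPS + IFNγ. Myc, a growth regulator that also acts on such genes, was lower by the test too (adjusted p = 0.0397), but it was detected on no LPS + IFNγ array, and its sign turned when each undetected value was set to its array's lowest detected one.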

How the data were processed

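RNA was extracted with TRIzol and labelled for Illumina bead arrays, per the labels' protocols. The authors deposited a table of intensity values on a linear scale, which carry no scaling between arrays as their totals and the file headers show, and a detection p-value beside each intensity. A second table deposited by the authors holds log2 values, which match quantile-normalized log2 signals with a shift per probe that is equal and opposite on the 2 slides. Partek is named in the submitters' processing notes, with no role.

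The intensities were background-corrected by normexp (offset 16, control parameters estimated from detection p-values) in limma 3.58.1 under R 4.3.3, followed by log2 and quantile normalization. Probes with a detection p under 0.05 on at least 3 of 9 arrays were kept (16895 probes, 9391 genes). The 3 groups of 3 arrays entered 1 linear model with limma's moderated test, no covariate, and Benjamini-Hochberg adjustment over all kept probes in each of 3 comparisons, at a threshold of 0.05. A gene is its kept probe with the highest mean. Symbols come from the platform annotation (34885 probes with 1 symbol, 18 with several, 10378 with none). Each comparison names up to 8 called genes per direction and, of each list of related genes, some of the 3 with the lowest adjusted p. The members and lists were chosen with earlier results of these data known. The procedure was also tested on simulated data. The number of arrays limits the precision, as does the low signal of LPS + IFNγ replicate 2. Equal replicate numbers were checked by the correlation of deviations from the group mean across probes: it was 0.366, 0.427 and 0.30 for IL-4 with unstimulated arrays, where a replicate block was therefore also fitted, and between -0.115 and 0.068 for the other pairs. Alternatives covered background correction, normalization, filter, slide, replicate block, array weights, intensity trend, the deposited log2 table and leaving out each array.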

Additional observations from a re-analysis of the deposited data

How the results depend on the processing

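The IL-4 median of the 72 genes kept its sign in all 24 settings (0.17 to 0.40). Its upper end came with slide as a block, where it was 0.28 once LPS + IFNγ replicate 2 was also left out. None of the 72 was called except 1 with array weights, where 131 of all genes were called higher and 124 lower. The counts of genes higher and lower were 0 and 0 without any single array (medians 0.20 to 0.26). They were also 0 and 0 with a replicate block on all arrays or on the IL-4 and unstimulated arrays only. For LPS + IFNγ against unstimulated (median -0.070) the counts higher and lower were 1 and 3 with all arrays. Counts over all genes are in brackets here and below (575 and 1143 with all arrays). The counts were 2 and 6 (678 and 1273) without background correction and 2 and 5 (644 and 1241) with an offset of 50. Median centring gave 0 and 0 (352 and 648), and the deposited log2 table gave 2 and 6 (711 and 1318). Without a detection filter there were 1 and 5 (527 and 944). Slide as a block gave 0 and 0 (241 and 426), and the replicate block gave 1 and 1 (508 and 1007). Array weights gave 9 and 5 (1497 and 2195), and an intensity trend gave 1 and 5 (606 and 1192). With LPS + IFNγ replicate 2 left out and slide as a block there were 8 and 2 (923 and 1418, median 0.23). Within slide 2 the median was 0.19 (-0.066 over all genes). Leaving out single arrays gave 0 to 10 higher, 0 to 5 lower and a median of -0.25 to 0.26, the upper ends without LPS + IFNγ replicate 2. Over all genes this was 354 to 1317 higher and 637 to 1875 lower, with the same upper ends. For LPS + IFNγ against IL-4 (median -0.36) the counts were 0 and 5 with all arrays (534 and 1093). They were 1 and 6 (643 and 1219) without background correction and 1 and 6 (613 and 1183) with an offset of 50. Median centring gave 0 and 0 (350 and 611), and the deposited table gave 3 and 7 (737 and 1448). The replicate block gave 0 and 2 (474 and 928), and array weights gave 6 and 9 (1477 and 2317, median -0.057). An intensity trend gave 1 and 5 (558 and 1116). Undetected values raised gave 0 and 3 (668 and 570, median -0.048). Leaving out LPS + IFNγ replicate 2 with slide as a block gave 3 and 6 (1075 and 1639, median -0.032). Within slide 1 there were 0 and 0 (0 and 0). Within slide 2 the median was -0.055. Leaving out single arrays gave 0 to 4 higher, 1 to 9 lower and a median of -0.41 to -0.030. Over all genes this was 292 to 1215 higher and 526 to 1824 lower. Myc in that comparison turned to 0.30 with undetected values raised. Median centring moved the all-gene median of LPS + IFNγ against unstimulated to -0.032, against -0.22 with quantile normalization. Calls over all genes changed with the setting too, and the counts of the 72 genes were not tested against them. Fewer arrays enter the within-slide fits. Within slide 2, where LPS + IFNγ and IL-4 have 1 array each, the spread comes from the unstimulated arrays alone. Medians are therefore given there without counts. The cause of the other changes was not tested. Signal over background limits what LPS + IFNγ replicate 2 can show, with 42 of the 72 genes detected there. The settings with undetected values raised, within a slide, with 2 choices changed together and with the block on 2 groups were chosen after seeing the data.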
